A study of Rattus norvegicus with 4 samples.

Results

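Voltage-gated sodium channel alpha subunits were examined for trimethylation of histone H3 at lysine 27 (H3K27me3) in rat sciatic nerve. The members are 8 genes chosen by name, Scn9a, Scn10a, Scn11a, Scn1a, Scn2a, Scn3a, Scn8a and Scn4a, of the 23154 protein-coding genes in the reference table. They are not the whole gene family, and shares given for the members or clusters cover only these 8. They were looked up as the gene named for each peak of a single list that the authors made from the H3K27me3 libraries of sham-operated nerve. All 8 were named by at least 1 peak, where 44.4% of protein-coding genes were, and together they account for 195 of the list's 129550 peaks. The nerves came from male Sprague Dawley rats aged 42 postnatal days and were taken from the limb opposite to a cut nerve, 1 day after that surgery. The sham side had its skin opened and nothing more. There were 2 H3K27me3 libraries and 2 input libraries of the same tissue, from chromatin cut with micrococcal nuclease. The peak list carries 1 value per peak for the pooled libraries and none per library, so no value here has a replicate error, no test over samples could be run, and the depth of each library is unknown.

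H3K27me3 is placed by the Polycomb complex PRC2 and is known for marking genes kept silent. Each alpha subunit forms the pore of a sodium channel that opens on depolarisation and carries the upstroke of the action potential, while beta subunits tune its gating and anchor it. A nerve trunk holds the axons in which these channels work, but the nuclei of those neurons lie in ganglia and spinal cord, so its chromatin comes from Schwann cells, fibroblasts, perineurial, vascular and immune cells. In such a mixed tissue, fewer cells with the mark and less mark per cell cannot be told apart.

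The tissue label was set against markers of cell types. Of 7 Schwann cell markers, 1 (Mbp, a myelin protein gene) had a promoter peak in the top 25% of scores, whereas 6 of 6 neuron markers had one. Skeletal muscle markers had 2 of 4, endothelial markers 1 of 3 and fibroblast markers 1 of 4. The share over all protein-coding genes was 12.6%, and that of the Schwann cell markers (14.3%) was near it.

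Promoter peaks were found at 5 of the 8 members, and their scores ranged widely. A promoter peak was counted where a peak assigned to the gene reached within 1000 bp of its transcription start site (TSS), and the members that had one were Scn1a, Scn4a, Scn8a, Scn10a and Scn3a. The share over all protein-coding genes was 17.2%, and among genes that a peak names it was 38.6%. None of the 8 had a peak that contained the TSS itself (6.15% of protein-coding genes did), and none had a promoter peak of at least 2000 bp (6.83%). With 8 members, these counts of 0 are near the background shares. Counting only peaks in the top 25% of scores, that is a score of at least 9.9, left Scn1a and Scn4a, 2 of 8 against a background of 12.6%. Scores were given by the authors, and their scale is not stated in the sources used here. Among the members' peaks, higher scores went with greater widths, so a higher score need not mean a denser mark.

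A peak with a score of at least 50, at any distance, was assigned to 5 of the 8 members, Scn8a, Scn1a, Scn3a, Scn9a and Scn2a, and to 16.1% of protein-coding genes. Of the members' 195 peaks, 107 were centred in introns, 82 between genes, 5 in the authors' promoter-TSS class and 1 in an exon. In size they resembled the list as a whole: 4.62% were at least 2000 bp wide (4.78% of all peaks), 39.5% had the smallest width of 150 bp (45.2%), and 6.15% scored at least 50 (5.99%). None was centred in a CpG island of the authors' annotation (0.379% of all peaks), and 32.3% were centred in a repeat (31.1%).

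**Figure D1:**
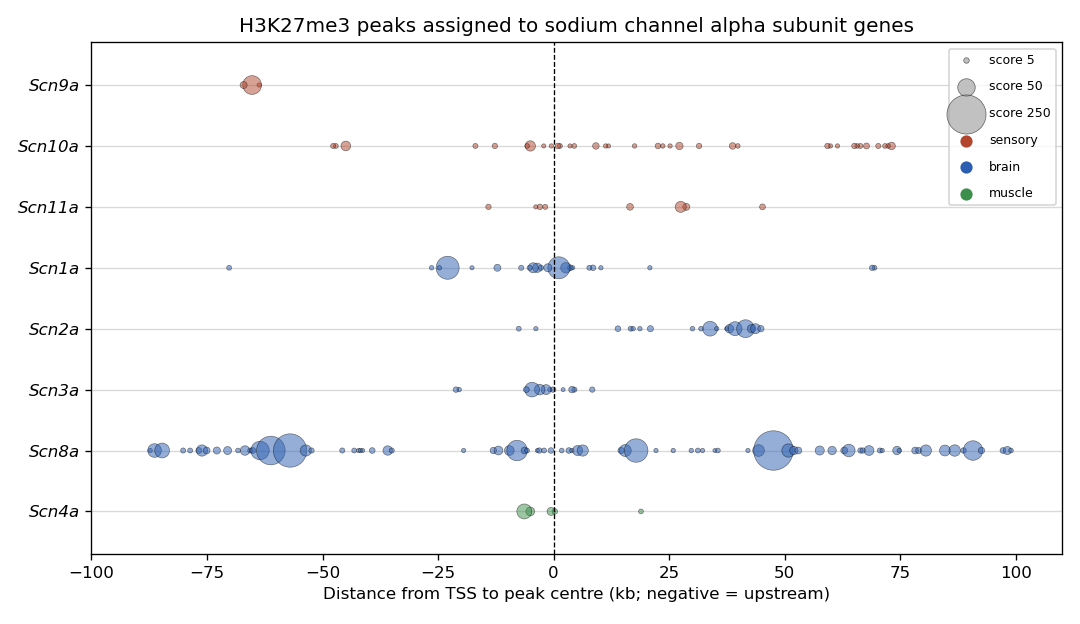
Each circle is an H3K27me3 peak assigned to a member, placed by the distance in kb of its centre from the TSS (dashed line, negative values upstream), with an area proportional to the authors' score and coloured by the subunit's role. The 11 peaks of Scn3a that lie more than 100 kb from its TSS are outside the plot; the large circles of Scn8a, Scn2a and Scn9a stand away from the dashed line, and that of Scn1a with a score of 79.2 stands beside it.

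Promoter sequences of 7 members were matched in RefSeq on the GRCr8 assembly, each from 250 bases before to 50 after the gene's start. There was no entry for Scn1a. The start in that table need not be the start that the peak list used on rn5. The 4 windows printed here were chosen because they span the range of CG content (PRC2 is often found at CG-rich promoters in mammals), and because Scn3a and Scn2a are divergent neighbours of which Scn3a alone had a promoter peak. They are written 5′ to 3′ on the gene's strand, with each CG in capitals.
Scn8a (GRCr8 chr7:133860977-133861276, plus strand): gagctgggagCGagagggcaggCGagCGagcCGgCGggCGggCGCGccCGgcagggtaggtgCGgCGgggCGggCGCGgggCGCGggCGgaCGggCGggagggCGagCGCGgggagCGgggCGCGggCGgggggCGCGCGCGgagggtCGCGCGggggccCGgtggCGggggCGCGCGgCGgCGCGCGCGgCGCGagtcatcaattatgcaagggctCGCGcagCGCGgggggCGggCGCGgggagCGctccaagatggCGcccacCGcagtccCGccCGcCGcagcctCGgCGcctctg
Scn10a (GRCr8 chr8:128340249-128340548, minus strand): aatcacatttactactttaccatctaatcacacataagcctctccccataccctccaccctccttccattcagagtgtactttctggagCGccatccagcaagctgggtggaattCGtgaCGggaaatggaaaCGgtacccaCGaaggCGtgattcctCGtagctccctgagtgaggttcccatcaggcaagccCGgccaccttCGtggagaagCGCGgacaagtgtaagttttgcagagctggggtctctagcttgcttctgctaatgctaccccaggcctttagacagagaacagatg
Scn3a (GRCr8 chr3:70666149-70666448, minus strand): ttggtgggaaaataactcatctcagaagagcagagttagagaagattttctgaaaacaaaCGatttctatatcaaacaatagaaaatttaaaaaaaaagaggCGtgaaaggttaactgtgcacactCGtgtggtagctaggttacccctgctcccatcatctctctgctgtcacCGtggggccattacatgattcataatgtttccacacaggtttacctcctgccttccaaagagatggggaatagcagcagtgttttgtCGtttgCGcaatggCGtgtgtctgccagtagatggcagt
Scn2a (GRCr8 chr3:70710706-70711005, plus strand): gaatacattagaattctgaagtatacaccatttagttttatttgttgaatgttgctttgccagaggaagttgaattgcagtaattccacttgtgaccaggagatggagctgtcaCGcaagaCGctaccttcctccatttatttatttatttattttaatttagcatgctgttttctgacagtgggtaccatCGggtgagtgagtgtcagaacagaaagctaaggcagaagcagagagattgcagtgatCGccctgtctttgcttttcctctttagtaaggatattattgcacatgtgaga

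The Scn8a window stood apart from the others in these letters. It held 60 CG steps, with 84.7% G and C and an observed to expected CG ratio of 1.21, more CG steps than 99.95% of the 33469 promoters in the table. Scn10a had 11 CG steps, Scn9a and Scn4a 9 each, Scn3a 7, Scn11a 6 and Scn2a 4, against a median of 7 over all promoters. Their observed to expected ratios lay between 0.296 (Scn4a) and 0.542 (Scn10a), with a median of 0.392 over all promoters. At least 20 CG steps were found in 24.2% of all promoters, and of the matched members only Scn8a reached that. The letters TATAAA, searched on both strands, occurred in 14.2% of all promoters and in none of the 7. Promoter peaks were also counted among protein-coding genes with a window in the table. They were found at 18.8% of the 7101 with at least 20 CG steps and at 12.5% of the 14750 with fewer. Genes without a window, Scn1a among them, are left out of both shares. Over all 23154 protein-coding genes the share was 17.2%. By these counts, the genes left out had a promoter peak more often than those with a window. Whether the contrast by CG steps would hold with them included was not tested.

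**Figure D2:**
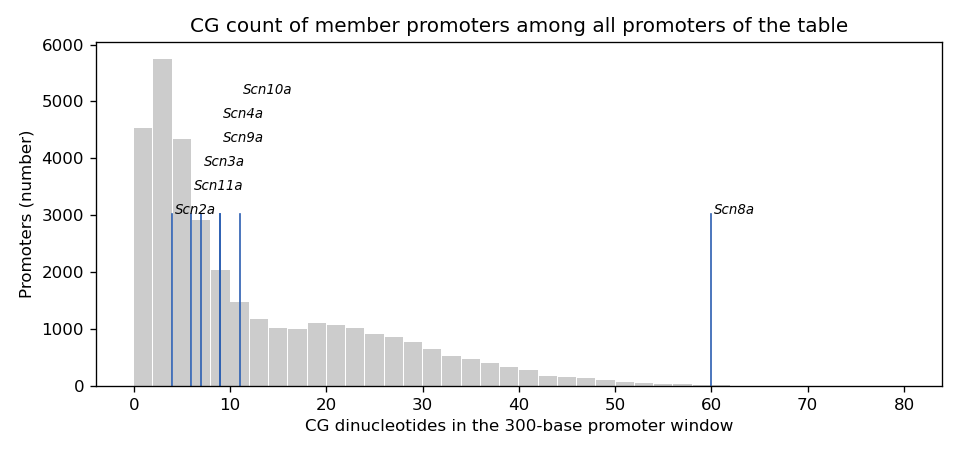
Grey bars give the number of promoter windows in the reference table by their count of CG steps, in bins of 2, with windows above the last bin placed in it, and blue lines mark the 7 matched members. Scn8a lies at 60, far to the right of the other 6, which lie between 4 and 11.

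Among the subunits of sensory neurons, 1 of 3 had a promoter peak (17.2% of protein-coding genes did), and 0 of 3 had one in the top 25% of scores (12.6%). Scn9a encodes the channel that amplifies small depolarisations in pain-sensing neurons and whose loss in humans abolishes pain. It had 3 peaks, all upstream and in a row (chromosome 3, 59350597 to 59354291 on rn5), between 63711 and 67079 bp from the TSS used by the authors. The largest was 2342 bp wide with a score of 57.8 (95% counting interval 51.2 to 64.9), and the others scored 3.09 and 8.04. No peak was annotated to the Scn9a transcript, while the other 7 members had between 3 and 50 peaks annotated to theirs. These counts include peaks of the promoter-TSS class, which can be centred upstream of the TSS.

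The intervals printed with scores treat each grid step of the score as 1 sequenced tag, which is an assumption, and they cover counting error only. In mice, Scn8a is known to have untranslated first exons far upstream of the first coding exon. Whether upstream peaks of Scn9a or Scn8a lie at such exons in the rat was not tested.

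Scn10a encodes the tetrodotoxin-resistant channel that carries most of the sodium current of the action potential in small sensory neurons. It had 35 peaks, more than 92.8% of the genes that a peak names, but low ones. Their median score was 3.92 and the highest 17.5 (14.0 to 21.7), a peak of 653 bp centred 5047 bp upstream. Both promoter peaks had low scores, 4.95 (3.17 to 7.37) at 916 bp downstream and 3.09 (1.73 to 5.10) at 484 bp upstream. The next peak, at 1366 bp and 150 bp wide, fell outside the promoter reach with a score of 3.92. By the authors' annotation 43 peaks belonged to the Scn10a transcript, its promoter-TSS class included, of which 16 were assigned to another gene. The highest of the 43 scored 65.0. Conversely 3 of the peaks assigned to Scn10a lay in introns of Scn11a.

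Scn11a encodes the persistent, tetrodotoxin-resistant channel that sets the excitability of nociceptors. It had 8 peaks with scores between 2.89 and 20 and no promoter peak. The closest was centred 1808 bp upstream with a width of 150 bp and a score of 4.13 (2.52 to 6.37). The highest lay in intron 11 (chromosome 8, 127696340 to 127697140), 27500 bp downstream. Of its 8 peaks 7 were centred in repeats, the largest share among the members, 3 of them in L1 and 2 in ERVK elements, the highest peak included in the ERVK pair.

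**Figure D3:**
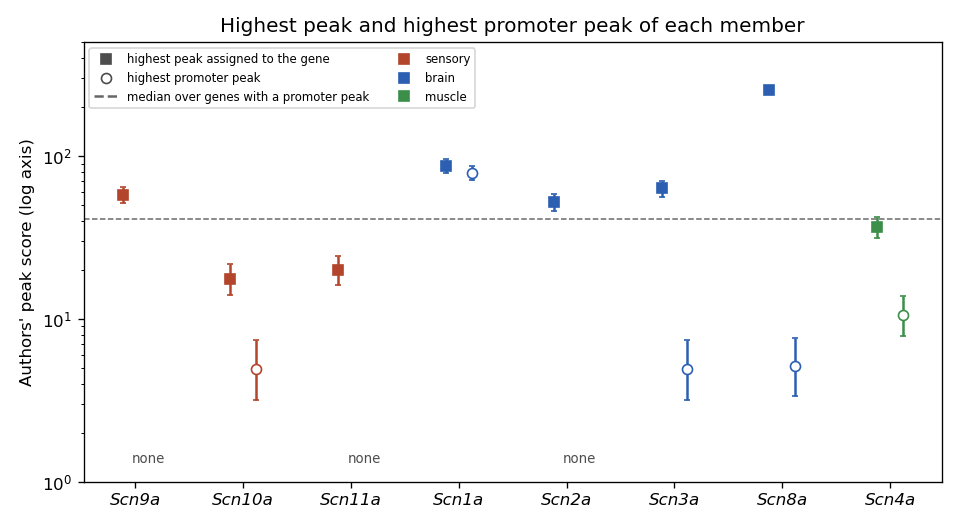
For each member the filled square is the highest score of any peak assigned to it and the open circle the highest score of a promoter peak, on a log axis, with 95% counting intervals and colours for the subunit's role. The squares of Scn8a and Scn3a lie far above their circles, and those of Scn10a and Scn4a lie above theirs by a smaller gap. The square and circle of Scn1a lie together at 86.8 and 79.2, and Scn9a, Scn11a and Scn2a have no circle. The dashed line is the median of 40.8 over all genes with a promoter peak.

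Of the brain subunits 3 of 4 had a promoter peak (17.2% of protein-coding genes did), and Scn1a had the highest of all members. The promoter peaks of Scn3a and Scn8a scored only 4.95 and 5.16, so 1 of 4 had one in the top 25% of scores (12.6%). Under the authors' promoter-TSS class Scn1a had none, and Scn4a had the highest with 10.5. With peaks within 5000 bp merged and their scores summed, Scn8a had 181.8 and Scn1a 180.6. Scn1a encodes the main channel of fast-spiking inhibitory interneurons. Its promoter peak (chromosome 3, 59133581 to 59135338, 1757 bp) was centred 1121 bp downstream of the TSS in intron 1 and scored 79.2 (71.5 to 87.5). That placed it above 64.5% of the genes with a promoter peak, next to Plxna2 (79.4), a semaphorin receptor gene, and Gnal (79.6), a G protein gene, above it, and Slc6a2, the noradrenaline transporter gene, and Lefty2, a signalling antagonist gene (79 each), below it, with 3 genes tied. A smaller peak on the other side of the TSS, 1256 bp upstream, scored 10.7 (8.01 to 14.1) and met the promoter reach by 30 bp. The TSS lay uncovered between these peaks. Within 5 kb upstream and 4 kb downstream of the TSS lay 7 peaks with a summed score of 148.6, which is 50.9% of the gene's total.

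The highest peak of Scn1a was not the promoter peak but an intergenic peak of 2612 bp, 22932 bp upstream (chromosome 3, 59157206 to 59159818), with a score of 86.8. Its counting interval, 78.7 to 95.6, overlapped that of the promoter peak. In all Scn1a had 22 peaks with a summed score of 292.1.

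Scn2a and Scn3a, the channels of early axon initial segments and of the embryonic brain, start 44770 bp apart and point away from each other. Scn2a had 18 peaks and no promoter peak. The closest, 3839 bp upstream, had the smallest width and a score of 3.09 (1.73 to 5.10). The mark of Scn2a lay deep in its first intron, where 9 peaks between 33 and 45 kb from the TSS held 82.5% of the gene's summed score of 208.9. The highest of them (chromosome 3, 58363412 to 58364926, 1514 bp) scored 52 (45.8 to 58.8).

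Scn3a had peaks at its promoter, but narrow ones with low scores. A peak of 188 bp centred 107 bp upstream scored 4.95 (3.17 to 7.37), and 1 of 150 bp at 821 bp upstream scored 3.09. Wider peaks with higher scores followed upstream of them, in the stretch between Scn3a and Scn2a. There, 4 peaks between 1.5 and 6 kb from the TSS covered 3688 bp with a summed score of 75.8. The first of these, 836 bp wide with a score of 16.3, lay 210 bp outside the promoter reach. The highest peak named for Scn3a scored 63.3 (56.4 to 70.8) but lay 224405 bp downstream. The genes that follow Scn3a there in the gene order of GRCr8, Slc38a11 and Cobll1, are named by no peak. A lack of peaks and a lack of an entry in the authors' annotation cannot be told apart here. In all, 11 of the 23 peaks of Scn3a lay more than 100 kb from its TSS. Within 100 kb its highest score was 35.5.

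Scn8a, which encodes the channel of mature nodes of Ranvier and axon initial segments, carried the largest summed score of the 8 members. It had 81 peaks that covered 49175 bp, and it held 57.9% of the summed score of all 8 members and 52.7% of their covered length. Its number of peaks exceeded that of 99.0% of the genes named by a peak, and its covered length that of 98.8%. Of the 12 member peaks that scored at least 50, 7 were of Scn8a. Its promoter nevertheless had a single peak, of 150 bp and with a score of 5.16 (3.34 to 7.61), at 576 bp upstream. Within 3 kb of the TSS on either side lay 3 peaks with a summed score of 13.0, or 0.849% of the gene's total.

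The high-scoring peaks of Scn8a formed blocks on both sides of that gap. The highest lay over intron 10 (chromosome 7, 140422103 to 140427093, 4990 bp), 47560 bp downstream, with a score of 255.2 (241.1 to 269.8), rank 1011 of the whole list. Upstream, a peak of 4312 bp at 57026 bp scored 182.3 and its neighbour of 2568 bp at 61188 bp scored 133.7. Between 50 and 70 kb upstream 9 peaks held 27.8% of the gene's summed score, and between 44 and 54 kb downstream 5 peaks held 21.3%. Lesser peaks lay in intron 1, 17861 bp downstream (score 90.3), and 7911 bp upstream (68.5). The counting intervals of these lesser peaks lay below those of the intron 10 peak and of the upstream pair. Which of these blocks, if any, holds the CG-rich window printed above was not tested, because the window is on another assembly.

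**Figure D4:**
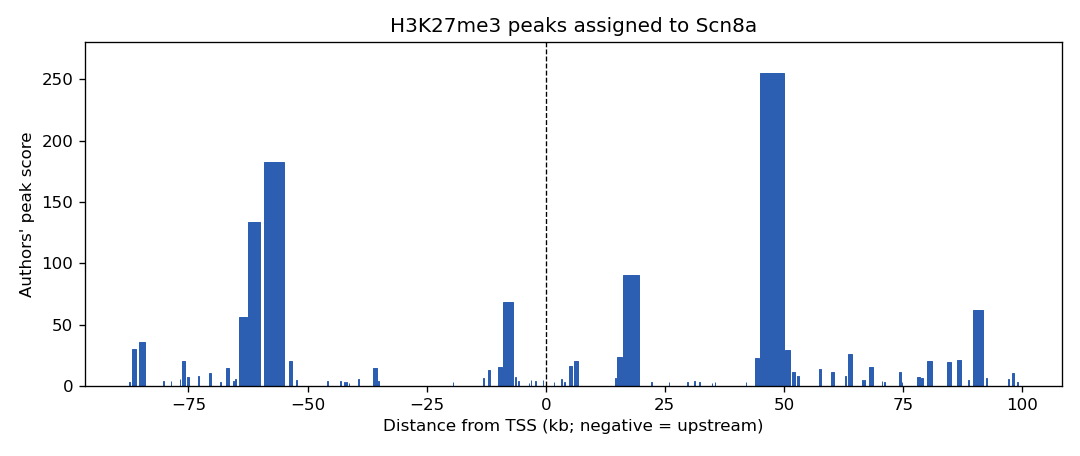
Each bar is a peak assigned to Scn8a, drawn at its distance in kb from the TSS (dashed line) with its true width, and its height is the authors' score. The tallest bars stand at 57 and 61 kb upstream and in intron 10 downstream, and the 3 bars within 3 kb of the dashed line reach no higher than 5.16.

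Scn4a, the sodium channel of skeletal muscle, lies alone on chromosome 10. It had 5 peaks, of which 2 were promoter peaks, with scores of 10.5 (7.83 to 13.8) at 560 bp upstream and 4.95 (3.17 to 7.37) at 261 bp downstream. Its highest peak, 1429 bp wide and 6345 bp upstream (chromosome 10, 94311480 to 94312909), scored 36.5 (31.3 to 42.3). That peak and a neighbour with a score of 12.6 held 71.9% of the gene's summed score of 68.3. Among the members Scn4a was the only one besides Scn1a with a promoter peak in the top 25% of scores, and the counting interval of that peak spanned the limit of 9.9.

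By cluster, the members on chromosome 3 (Scn3a, Scn2a, Scn1a and Scn9a) had higher assigned peaks than those on chromosome 8 (Scn10a and Scn11a). The 66 peaks of the chromosome 3 members included 18 in the top 25% of scores (27.3%) and 5 that scored at least 50, with a maximum of 86.8. The 43 peaks of the chromosome 8 members included 3 in the top 25% (6.98%) and none that scored at least 50, with a maximum of 20. That order depends on the assignment. By annotated transcript, the highest peak scored 65.0 for Scn10a and 20 for Scn11a. The values were 79.2 for Scn1a, 52 for Scn2a and 6.81 for Scn3a, and Scn9a had none. Peaks of the smallest width made up 43.9% in the chromosome 3 cluster and 51.2% in the chromosome 8 cluster. Per kb of covered length the summed scores were close, 25.9 on chromosome 3 and 22.8 on chromosome 8, and over single members this value lay between 22.6 (Scn11a) and 31.2 (Scn8a). Each peak went to the gene with the nearest TSS, so neighbouring genes divide the peaks of a cluster between them, and these values are descriptions with no test.

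By role, the 144 peaks of the brain subunits included 48 in the top 25% of scores (33.3%), the 46 peaks of the sensory subunits 4 (8.70%), and the 5 peaks of the muscle subunit 3 (60.0%). Of those 48 peaks, 31 were of Scn8a. The sensory Scn9a lies in the chromosome 3 cluster. Its highest assigned peak (57.8, 2342 bp) had a higher score than those of Scn10a (17.5, 653 bp) and Scn11a (20, 800 bp). The counting intervals did not overlap, but the Scn9a peak was also wider. Per kb of covered length the summed scores were close, 23.0 for Scn9a, 22.9 for Scn10a and 22.6 for Scn11a. The score of the Scn9a peak did not exceed that of the peak of 65.0 annotated to the Scn10a transcript.

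Genes in and around the clusters differed among themselves. Csrnp3, a gene between Scn2a and Scn1a that encodes a nuclear protein, had a promoter peak of 3282 bp with a score of 141.7 (131.3 to 152.7), above every promoter peak of the members. Galnt3, a glycosyltransferase gene, and Ttc21b, a cilium gene, lie in the same stretch and had no promoter peak. In all, 3 of 11 neighbours of the chromosome 3 cluster outside the sodium channel family had a promoter peak, the others being Fign (59.0) and Stk39 (48.3), and 0 of 8 neighbours of the chromosome 8 cluster did, Wdr48 and Gorasp1 beside Scn11a included. Over all protein-coding genes the share was 17.2%, and with so few neighbours both counts are near it. Any peak at all named 8 of the 11 and 5 of the 8. The difference between the clusters was not tested. Scn7a, the sodium-sensing relative that follows Scn9a in gene order, is named by no peak.

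When all peaks within 100 kb of a TSS were counted, whichever gene they were assigned to, Scn8a again came first and Scn9a last. The window of Scn8a held 88 peaks with a summed score of 1584.6, above 95.3% of the 8919 genes whose TSS could be placed. Scn2a and Scn3a, whose windows overlap, each held 30 peaks (319.5, above 62.1%), followed by Scn10a with 48 peaks (309.3, 61.1%), Scn1a with 24 (299.5, 60.2%), Scn11a with 19 (233.3, 52.4%), Scn4a with 8 (116.6, 34.3%) and Scn9a with 4 (72.8, 24.4%). The median over these genes was 17 peaks and a summed score of 214.1. A TSS could be placed only for transcripts with at least 2 assigned peaks, so genes with fewer are absent from this background. Apart from Scn8a, the members' windows lay above 24.4% to 62.1% of these genes by summed score.

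Among the partners of the alpha subunits, all 4 beta subunit genes had a promoter peak, and all 4 peaks were in the top 25% of scores. Over all protein-coding genes these shares were 17.2% and 12.6%. Scn4b, whose product contributes to resurgent current, had 553.4 (532.7 to 574.8) over 9675 bp and Scn2b, whose product is linked to the alpha subunit by a disulfide bond, had 244.0 (230.3 to 258.3) over 5922 bp. Of the 4 genes, 2 had a promoter peak of at least 2000 bp and 1 had a peak centred in the authors' promoter-TSS class. The counting intervals of Scn4b and Scn2b lay above that of Scn1a, the highest alpha subunit. Nalcn, the sodium leak channel gene, had 6 peaks, the nearest 105829 bp from its TSS.

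Of 14 partners at the node and axon initial segment, 12 had a promoter peak, of which 11 reached the top 25% of scores. The shares over all protein-coding genes were 17.2% and 12.6%. Among the highest were those of Cntn2 (264.9), an axonal adhesion gene, Nfasc (143.4), which gathers sodium channels at nodes, and Fgf11 (138.2), of the family that binds the channels' tails. Fgf13 had none, and Ank2 is named by no peak at all.

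Other voltage-gated channels were compared as the families most like the members. Calcium channel alpha-1 subunits had a promoter peak in the top 25% of scores at 8 of 10 genes, led by Cacna1e (372.3), Cacna1g (101.3), Cacna1h (86.6) and Cacna1b (63.5), with none at Cacna1c and Cacna1i. Shaker-type potassium channels had one at 6 of 8, led by Kcna3 (220.7), Kcna1 (110.6), Kcna2 (88.3) and Kcna7 (70.8), with none at Kcna4 and Kcna10. Among 12 genes of sensory neurons 7 had one, among them Isl1 (442.2), a transcription factor of sensory neurons, and the neuropeptide genes Tac1 (205) and Calca (172.6). P2rx3 had no promoter peak, and Trpv1 is named by no peak at all. In the alpha subunits the count was 2 of 8. A peak over the TSS itself was found at 2 of the 10 calcium channel genes, 3 of the 8 potassium channel genes and 0 of the 8 alpha subunits. The difference between these lists was not tested.

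**Figure D5:**
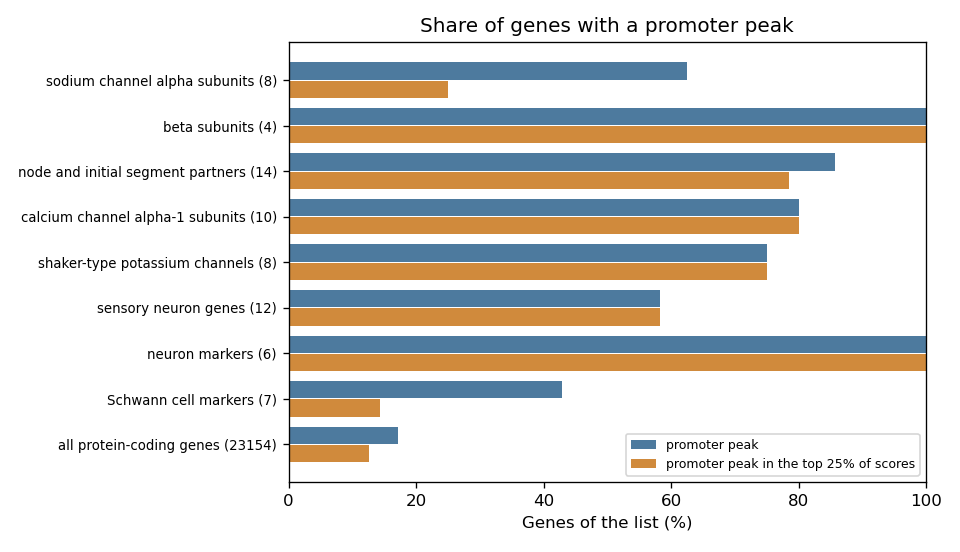
Bars give the percentage of genes in each list with a promoter peak (blue) and with a promoter peak in the top 25% of scores (orange), with the number of genes in parentheses. The blue bar of the alpha subunits (62.5%) drops to 25% in orange, while those of beta subunits, calcium channels and potassium channels keep their length, and all protein-coding genes stand at 17.2% and 12.6%.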

How the data were processed

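H3K27me3 peaks came from 2 libraries of sham-operated sciatic nerve, with 2 input libraries. Per the submitters' processing notes, CASAVA 1.8.2, Bowtie and HOMER were used. Per the file headers, HOMER annotated a combined sham peak list against rn5. The sources used here do not say how replicates were combined, which Bowtie version and calling settings applied, or how the input entered. Each peak has a score that the authors deposited, with coordinates, width and distance to the TSS in bp. Scores under 10 (97601 peaks) were multiples of 0.206271 within 0.006 in 100% of cases, and the smallest score of 1.86 is 9 steps. Exact Poisson 95% intervals take 1 step as 1 tag.

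A promoter peak was one whose distance to the TSS was no more than 1000 bp plus its width divided by 2. Of the gene identifiers named by peaks, 99.2% matched the GRCr8 table, which served for names, gene order and promoter sequences. Genes named by no peak were taken as unmarked, though they may lack an entry in the authors' annotation. TSS positions were placed from distances for transcripts with at least 2 peaks. Of the strands inferred in this way, 91.2% equalled those of the reference table. The call was run on simulated data with hits and misses placed clear of the reach limit and genes far apart. That run checks the code only, and not peaks near the limit or closely spaced genes. Python 3.11.15, pandas 2.3.3 and scipy 1.17.1 were used.

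The members and lists were chosen with earlier results of these data known. All 8 members are named, with up to 4 genes with and 2 without a promoter peak per partner and channel list, genes around the clusters, and genes ranked next to Scn1a. Some genes that this rule names are not reported here. Cell type markers are given by counts. No test was run, since the list holds no value per library. Alternatives changed the reach, the class of peak, score and width minimums, merging and the background. Counting by windows of 100 kb or by transcript was added after seeing the data.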

Additional observations from a re-analysis of the deposited data

How the results depend on the processing

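The count of 5 members with a promoter peak (17.2% of protein-coding genes) stayed within 1.5 times of that value under the following settings. A reach of 5000 bp gave 7 members (27.7% of protein-coding genes), and the promoter-TSS class gave 4 (8.27%). Scores at or above the median gave 5 (14.7%), and merging peaks within 5000 bp gave 5 (17.9%). Taking genes named by a peak as the background cannot change that count. Requiring a peak over the TSS gave 0 members (6.15% of protein-coding genes). The top 25% of scores gave 2 (12.6%) and a width of at least 2000 bp gave 0 (6.83%). The share over all protein-coding genes thus moved with the setting as well. Over the partner and channel lists together, 37 genes had a promoter peak, and 18 did with a peak over the TSS, 19 with the promoter-TSS class and 21 at a width of at least 2000 bp. Of the 35 counts over the 5 lists with any promoter peak, leaving out the change of background, 25 stayed within 1.5 times. The highest promoter score among the members was 10.5, a peak of 455 bp at Scn4a, with the promoter-TSS class, and 181.8 after merging, which is the summed score of a block of 19910 bp at Scn8a and not that of a single peak. The members' 195 peaks became 109 at or above the median score and 55 in the top 25%. Apart from the fewer peaks that stricter settings count, the cause of these shifts was not tested.

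No paired analysis was possible because the peak list pools the libraries and holds no value per replicate, and for the same reason no replicate could be left out. Low scores rest on few tags: 3.09 has an interval of 1.73 to 5.10. Peaks go to the nearest TSS, so counts depend on gene spacing, and a start site missing from the authors' annotation would hide a promoter peak.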
